A study of Mus musculus with 115 samples.

Results

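The liver's difference between mice that had carried testes and mice that had carried ovaries, measured without any hormone in the capsule, is described here. The arrays were taken by their labels: 20 liver arrays of mice with a blank capsule, of 60 liver arrays and 115 arrays in the whole series of liver and inguinal fat. In the 10 arrays of the first arm the label ends in XXSry_B or XY-Sry_B, and in the 10 of the other arm it ends in XX_B or XY-_B, with 5 mice in each of the 4 groups. No measured value was used to choose them.

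The series used the FCG (4 core genotypes) mouse on a C57BL/6J background, in which Sry is deleted from the Y chromosome (written XY-) and an Sry transgene sits on an autosome, so that gonad type and sex chromosomes are inherited separately. XXSry and XY-Sry mice form testes, and XX and XY- mice form ovaries. All mice, whatever their group, lost their gonads at 75 days of age, received a Silastic capsule at once, and gave tissue 3 weeks later. The blank capsule held adhesive only; other mice received 5 mM testosterone, a dose the labels place in the high physiological range, or 50 µg of estradiol. With blank capsules the contrast compares adults without gonads whose gonads had differed, and at the same time carriers of the transgene with non-carriers. Mice with ovaries also never shared a cage with mice with testes. Gonadal history, the transgene and the cage cannot be told apart in this design.

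Liver is among the organs with the most sex-dependent transcription in the mouse. Much of it follows the rhythm of pituitary growth hormone, which is pulsatile in males and more continuous in females and which acts in hepatocytes through the transcription factor STAT5. Gonadal hormones shape that rhythm both early in life and in adulthood. The liver also holds Kupffer cells, its resident macrophages, which present antigen on MHC class II molecules and respond to interferons.

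Median raw intensity lay between 127.9 and 159.2 in the 10 arrays of former testes and between 126.8 and 157.5 in the 10 of former ovaries, and 33.3% to 40.6% and 34.1% to 41.0% of probes were detected above background. The blank arrays lay on 5 slides, each with 2 arrays of each arm, but at different chip positions. Both arrays of former testes on slide 1 were XXSry, and both on slide 2 were XY-Sry. Differences within XX and within XY mice are therefore in part tied to slide. The 4 arrays of 1 slide, slide 5, stood apart on the first principal component, which held 23.3% of the variance. Xist, the RNA that silences an X chromosome, measured 6.11 to 7.21 on the log2 scale in all 10 XX and XXSry arrays and 4.52 to 5.72 in the 10 others. The Y-linked gene Eif2s3y measured 4.32 to 4.88 and 6.76 to 8.0 in the same order, which is the order of the labels in all 20 arrays. The hepatocyte marker list summed to 125844 to 141858 intensity units in former testes and 119850 to 136696 in former ovaries. The labels do not say which arrays share a litter. Unless stated otherwise, limma p-values rest on the spread within groups over all liver arrays, those of hormone-treated mice included. They do not measure the spread of the blank arrays alone.

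Of 11317 probes tested (8510 gene symbols), 201 differed between the arms at a limma adjusted p (Benjamini-Hochberg) under 0.05, which is 1.78% of those tested. Of these, 33 were higher in former testes (0.292%) and 168 were lower (1.48%). The split was 14 higher and 135 lower with arrays centred on their medians, 75 and 245 or 82 and 256 with slide as a fixed or random block, 130 and 334 with the slide block on the 20 blank arrays alone, and 96 and 275 with array weights. They stand for 182 genes, and 50 of them differed at least 2-fold, 12 higher and 38 lower. The median difference over all tested probes was 0.01 on the log2 scale. Every difference below is former testes minus former ovaries on the log2 scale, averaged over XX and XY, so a negative value means a higher level after ovaries. For 36 of the 201 probes the arms did not overlap at all, 5 higher and 31 lower. Over all probes tested, 37 showed such a gap (0.327%); the one not called was the cytochrome P450 gene Cyp2b13.

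The list of female-predominant liver genes held 9 called probes of 34, all lower in former testes, for 8 genes, among them A1bg, Cyp17a1, Cyp2c40, Cyp3a41a, Dct, Hao2 and Sult3a1. Its median difference was -0.27, against 0.01 for all probes. This list and those below were chosen with earlier results of these data known, so their shares of calls are descriptive and test nothing. The largest difference of all probes tested belonged to A1bg, which encodes a secreted plasma glycoprotein of the immunoglobulin superfamily. In former testes its level ranged from 4.86 to 6.58 with a median of 5.91, and in former ovaries from 9.45 to 13.42 with a median of 11.47. The arms were separated by a wide gap, and both sex-chromosome backgrounds showed it: 5.76 ± 0.66 in XXSry against 11.64 ± 1.52 in XX mice, and 5.72 ± 0.43 in XY-Sry against 11.24 ± 0.68 in XY- mice (SD, n = 5 each). The fitted difference was -5.70 ± 0.48 (SE, limma adjusted p = 7.03e-13). A1bg was detected in 6 of the 10 arrays of former testes.

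Sult3a1, a sulfotransferase, and Cyp3a41a, a cytochrome P450 that oxidises steroids and drugs (listed on the array as Cyp3a41), were not detected in any array of former testes. Sult3a1 ranged there from 4.46 to 4.98 (median 4.73), and in former ovaries from 6.53 to 8.40 (median 7.48). Since the lower arm lay at background, the difference is a bound: at least 3.92-fold higher after ovaries, from means of 4.71 and 7.49 (limma adjusted p = 1.22e-12). Cyp3a41a ranged from 4.29 to 4.65 (median 4.38) against 6.40 to 8.57 (median 7.37), at least 3.58-fold higher after ovaries (means 4.42 and 7.36, limma adjusted p = 2.27e-12). All 10 arrays of former ovaries lay above all 10 of former testes for both genes. Such a bound takes, for each array of the dim arm, the higher of the array's lowest detected signal and the gene's own value.

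Cyp17a1, the steroid hydroxylase and lyase on the path to androgens, ranged from 6.11 to 8.37 (median 7.79) in former testes and from 8.79 to 10.79 (median 10.27) in former ovaries, a difference of -2.49 ± 0.36 (SE, limma adjusted p = 4.21e-06). The arms did not overlap. Dct, dopachrome tautomerase of the melanin pathway, ranged from 4.50 to 7.05 (median 5.80) and from 7.11 to 9.71 (median 8.49), a difference of -2.72 ± 0.29 (limma adjusted p = 1.44e-09). The highest former-testis array for Dct lay just below the lowest former-ovary array. Hao2, a peroxisomal hydroxyacid oxidase, was detected in 0 arrays of former testes and 8 of former ovaries and was at least 1.18-fold higher in the latter (limma adjusted p = 3.85e-08).

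Other female-predominant genes lay close to the threshold or missed it. Cyp2b13 ranged from 10.06 to 11.82 in former testes and from 11.84 to 13.44 in former ovaries, without overlap, but its difference of -1.91 had a limma adjusted p of 0.0516. It was called with slide as a fixed block (adjusted p = 0.0291) or a random block (0.022), and on the 20 blank arrays alone (4.43e-06). Cyp2b9, its close relative, differed by 0.16 (limma adjusted p = 0.981). Probes of such near-identical P450 genes may bind transcripts of more than 1 of them. Cyp2c40 fell by 0.74 (limma adjusted p = 0.0336), a call that was lost when any one of 12 of the 20 arrays was left out (adjusted p up to 0.0766, without XY-Sry_B replicate 3), and without slide 5 (0.134).

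**Figure D1:**
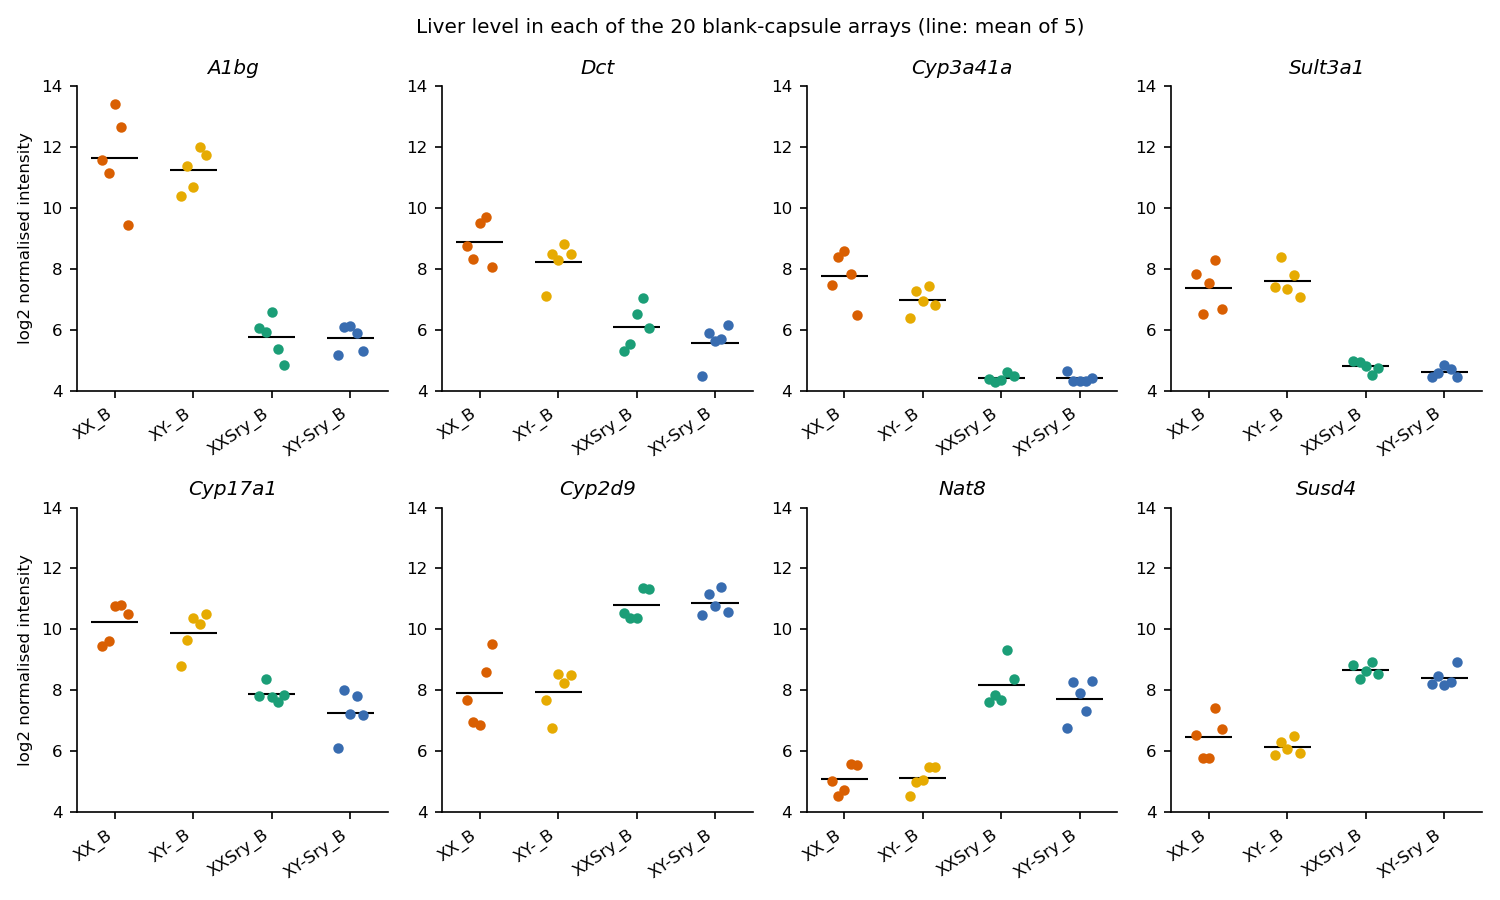
Log2 normalised intensity (vertical axis) of 8 genes in each of the 20 blank-capsule arrays, by group; each point is 1 mouse and the line is the mean of 5. A1bg lies at 4.86 to 6.58 in XXSry and XY-Sry mice and at 9.45 to 13.42 in XX and XY- mice.

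Among the 33 probes that were higher in former testes, the male-predominant list supplied 4 of its 32 probes, one each for Cyp2d9, Nat8, Susd4 and Cyp7b1; its median difference was 0.13. Cyp2d9, a male-predominant P450 that hydroxylates testosterone, ranged from 10.38 to 11.39 (median 10.67) in former testes and from 6.76 to 9.53 (median 7.97) in former ovaries. The difference was 2.90 ± 0.43 (limma adjusted p = 5.09e-06), with all 10 arrays of former testes above the highest former-ovary array. Nat8, an acetyltransferase of cysteine conjugates listed as Cml4, ranged from 6.77 to 9.31 (median 7.89) and from 4.54 to 5.60 (median 5.05), a difference of 2.84 ± 0.25 (limma adjusted p = 2.27e-12). Nat8 was detected in only 2 of the 10 arrays of former ovaries.

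Susd4, a sushi-domain protein that restrains complement (listed as E430021N18Rik), ranged from 8.17 to 8.93 (median 8.50) against 5.78 to 7.43 (median 6.18), a difference of 2.24 ± 0.27 (limma adjusted p = 3.68e-08). Cyp7b1, the oxysterol hydroxylase of the alternative bile acid pathway, ranged from 11.59 to 12.23 (median 11.92) against 10.23 to 11.66 (median 11.05), a difference of 0.92 ± 0.19 (limma adjusted p = 0.00163). Susd4 separated the arms fully, while the Cyp7b1 levels overlapped at their edge. Outside the list, Nox4, an NADPH oxidase that makes hydrogen peroxide, ranged from 8.69 to 9.53 (median 8.98) against 6.65 to 8.07 (median 7.65), a difference of 1.50 ± 0.25 (limma adjusted p = 4.4e-05).

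The other large differences in this direction were smaller or less even. Cyp4a12, a male-predominant fatty acid hydroxylase, was detected in 9 arrays of former testes and 1 of former ovaries and differed by 1.53 ± 0.40 (limma adjusted p = 0.0242), but without XXSry_B replicate 4 the adjusted p was 0.0734. Its call was also lost without background correction (a difference of 0.58, adjusted p = 0.393), at an offset of 50 (0.119), without the filter on dim probes (0.0647), with chip position as a block (0.128) and without slide 5 (0.101). A transcript listed only as MGC25972 rose by 2.47 ± 0.51 (limma adjusted p = 0.00185), with overlapping arms. Krt23, a keratin, differed by 1.35 (limma adjusted p = 0.0208), and lost the call without XXSry_B replicate 4 (adjusted p = 0.0757), XY-Sry_B replicate 3 or XY-_B replicate 1. Adam11 (1.12), Syne4 (1.06), the serine protease gene Prss8 (0.88) and the noncoding RNA Snhg11 (0.87) were also higher in former testes at limma adjusted p values of 0.000228, 0.0124, 0.00873 and 0.00914; Prss8 was not called with median centring (0.104). Ociad2 (1.04, limma adjusted p = 0.0273) and Gm4956 (0.95, limma adjusted p = 0.049) lost their calls without any one of 10 and 13 of the 20 arrays (adjusted p up to 0.0791, without XX_B replicate 1, and up to 0.166, without XY-Sry_B replicate 4).

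Other male-predominant genes missed the threshold. Hsd3b5, a male-specific hydroxysteroid dehydrogenase, differed by 0.56 (limma adjusted p = 0.861) and the major urinary protein gene Mup1 by -0.16. Elovl3, a fatty acid elongase of male liver, was not well above background in any blank array, and Slco1a1, an organic anion transporter, in only 2 of the 20.

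The growth hormone list had 2 called probes of 37, both for Igfbp2, which encodes a circulating binding protein of insulin-like growth factors. Igfbp2 ranged from 12.40 to 13.24 (median 12.80) in former testes and from 11.45 to 12.28 (median 11.79) in former ovaries, a difference of 1.03 ± 0.19 (limma adjusted p = 0.000244) without overlap; the second probe gave 1.04. The insulin-like growth factor gene Igf1 differed by -0.19, the growth hormone receptor gene Ghr by 0.08 and the feedback inhibitor gene Socs2 by 0.07. Cish, another STAT5 target, differed by 0.74 (limma adjusted p = 0.641), and Bcl6, a repressor that is male-predominant in liver, by -0.80 (limma adjusted p = 0.548). The list of steroid and related nuclear receptors, which also holds steroid-metabolising enzymes, gave 0 calls among 24 probes. The estrogen receptor gene Esr1 stood at -0.05, while Esr2, Pgr, Nr3c1 and Nr3c2 were among the members not tested. A missed threshold does not show equal levels.

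Promoter sequence was set beside these genes because STAT5 and interferon-activated factors are known regulators of hepatic genes. The 250 bases before the transcription start (RefSeq, GRCm38.p6) were searched on both strands for the STAT core TTCNNNGAA and for the interferon response core, GAAA and GAAA around any 2 bases. The promoters of 5 genes are shown 5′ to 3′ on the strand of the gene, with the match in capitals: 3 genes with a STAT core among the largest differences, and 2 interferon-induced genes with the other core.
A1bg, chr15:60921271-60921520, minus strand: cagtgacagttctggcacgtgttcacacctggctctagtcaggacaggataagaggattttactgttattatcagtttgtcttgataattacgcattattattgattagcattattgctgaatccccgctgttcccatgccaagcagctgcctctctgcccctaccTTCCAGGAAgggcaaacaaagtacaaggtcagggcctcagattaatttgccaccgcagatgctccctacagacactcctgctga
Sult3a1, chr10:33857472-33857721, plus strand: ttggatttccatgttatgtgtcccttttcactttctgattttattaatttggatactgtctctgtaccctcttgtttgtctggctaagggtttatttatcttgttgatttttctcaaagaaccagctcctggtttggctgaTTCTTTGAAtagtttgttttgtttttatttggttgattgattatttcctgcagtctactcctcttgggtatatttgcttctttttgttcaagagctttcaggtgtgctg
Nox4, chr7:87246399-87246648, plus strand: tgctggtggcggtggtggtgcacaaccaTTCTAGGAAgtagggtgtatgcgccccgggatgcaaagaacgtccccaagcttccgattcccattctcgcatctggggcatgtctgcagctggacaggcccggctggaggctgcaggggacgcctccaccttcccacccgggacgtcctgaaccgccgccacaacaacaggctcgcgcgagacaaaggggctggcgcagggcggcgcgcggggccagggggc
Cxcl10, chr5:92348890-92349139, minus strand: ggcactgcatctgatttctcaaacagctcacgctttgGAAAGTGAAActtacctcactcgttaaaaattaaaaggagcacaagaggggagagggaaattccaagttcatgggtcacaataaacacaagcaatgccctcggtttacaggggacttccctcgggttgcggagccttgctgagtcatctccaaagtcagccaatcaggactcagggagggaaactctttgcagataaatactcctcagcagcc
Gbp2b, chr3:142594597-142594846, plus strand: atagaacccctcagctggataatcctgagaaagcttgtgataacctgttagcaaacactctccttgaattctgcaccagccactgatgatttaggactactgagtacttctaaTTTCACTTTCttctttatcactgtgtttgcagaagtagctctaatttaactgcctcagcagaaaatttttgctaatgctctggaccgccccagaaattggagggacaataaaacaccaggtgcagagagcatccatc
The match begins 84 bases before the start in A1bg, 109 in Sult3a1 and 222 in Nox4, which was higher in former testes. In Cxcl10 it begins 213 bases before the start, and in Gbp2b, where the core is read on the other strand, 137. The STAT core stood in 2 of 21 promoters of genes higher in former testes (9.52%) and in 7 of 107 of those lower (6.54%), against 395 of 6569 tested genes (6.01%) and 1940 of all 27025 promoters (7.18%). The interferon core stood in 2 of 21 (9.52%) and 7 of 107 (6.54%), against 185 of 6569 (2.82%) and 821 of 27025 (3.04%). These shares describe letters in a short window and say nothing of factor binding.

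Among the largest lower differences outside the female-predominant list were single enzyme and transport genes, while the hepatocyte and metabolic lists held few calls. Nt5e, the surface enzyme that makes adenosine from AMP, ranged from 6.39 to 8.07 (median 7.36) against 8.24 to 10.54 (median 9.32), a difference of -1.99 ± 0.23 (limma adjusted p = 1.26e-08). St3gal6, a sialyltransferase listed as Siat10, ranged from 6.72 to 8.36 (median 7.52) against 8.60 to 9.70 (median 8.91), a difference of -1.46 ± 0.21 (limma adjusted p = 1.73e-06). Dio1, the deiodinase that activates thyroid hormone, ranged from 8.01 to 9.61 (median 8.59) against 9.29 to 10.70 (median 10.17), a difference of -1.36 ± 0.18 (limma adjusted p = 4.93e-07). Nt5e and St3gal6 did not overlap between the arms; Dio1 overlapped over a short stretch. Acnat2, an acyltransferase, fell by 1.45 (limma adjusted p = 0.00901), Pltp, the phospholipid transfer protein gene, by 1.06 (limma adjusted p = 0.000452), and Sult5a1, a sulfotransferase, by 1.07 (limma adjusted p = 0.0101, and 0.0576 without slide 5). With Sult3a1, Sult5a1 made up the 2 called probes of 41 in the list of conjugating transferases (median 0.04).

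Insig2, which holds the cholesterol-sensing SREBP complex in the endoplasmic reticulum, ranged from 4.59 to 6.68 (median 5.32) in former testes and from 6.47 to 9.55 (median 8.05) in former ovaries. This probe fell by 2.49 ± 0.39 (limma adjusted p = 1.65e-05), whereas the gene's other probes differed by -0.80 (limma adjusted p = 0.0508) and -0.63 (limma adjusted p = 0.15). The probes of Insig2 thus share a sign but differ widely in size. Insig2 was the only called gene of the cholesterol list, by 1 probe of 33; the list's median was -0.27, at 0.06 within XX and -0.61 within XY mice. G6pc, which releases free glucose from the liver, ranged from 8.34 to 10.71 (median 9.37) against 9.22 to 12.50 (median 11.23), with overlapping arms. Its difference was -1.55 ± 0.35 (limma adjusted p = 0.00618), made up of -2.50 within XX and -0.60 within XY mice. The exact two-sided permutation test within slides gave G6pc p = 0.00309, against a smallest possible p of 0.000257.

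Pdk4, a brake on pyruvate oxidation, was lower in former testes as well: the average of -1.03 (limma adjusted p = 0.00927) combined -1.65 within XX and -0.40 within XY mice. The Pdk4 call was lost when the 20 blank arrays were fitted alone, without or with the slide block (adjusted p = 0.0566 and 0.0576). It was the single called probe of 36 in the PPAR-alpha target list (median -0.08), as G6pc was of 33 in gluconeogenesis (median 0.18) and Cyp7b1 of 29 in bile acid metabolism (median 0.01). No probe was called among 23 of fatty acid synthesis (median -0.06), 29 of the acute phase response (median -0.02) or 21 of the cell cycle (median -0.10). The circadian clock list had 0 calls of 24 but a median of 0.43, with 21 probes positive: Per2 differed by 0.92 (limma adjusted p = 0.0656, and 0.0176 without slide 5) and Dbp by 1.01 (limma adjusted p = 0.322). The labels used here do not give the hour at which a mouse was killed.

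Genes of macrophages and antigen presentation were lower in former testes as well. Of the 201 called probes 33 were in an immune list, and all 33 were lower in former testes, as were 168 of all 201. The immune lists of B cells, dendritic cells, neutrophils and MHC class I held 0 called probes. Over all probes tested, 1.78% were called. The macrophage and Kupffer cell list had 12 called probes of 19, all lower, for 9 of its 13 genes; all 19 differences were negative and their median was -0.78. The complement gene C1qb, made by macrophages, ranged from 9.33 to 9.81 (median 9.55) in former testes and from 10.22 to 11.68 (median 10.55) in former ovaries, a difference of -1.07 ± 0.15 (limma adjusted p = 1.25e-06). Its partner C1qc ranged from 8.87 to 9.45 (median 9.20) against 9.80 to 11.12 (median 10.17), and C1qa fell by 0.83 (limma adjusted p = 0.000777). C1qb and C1qc kept the arms wholly apart.

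Vsig4, the complement receptor of Kupffer cells, ranged from 9.46 to 10.02 (median 9.76) against 10.02 to 11.26 (median 10.55), a difference of -0.88 (limma adjusted p = 0.000469). Clec4f, a lectin restricted to Kupffer cells, fell by 0.76 (limma adjusted p = 0.00661) and Adgre1, an adhesion receptor of macrophages, by 1.11 (limma adjusted p = 0.000116); the other Adgre1 probes differed by -0.58 and -0.54 and were not called. Lysozyme, Lyz2, fell by 0.91 and 1.18 on its 2 called probes, and a dim probe of it was not called. Csf1r, the growth factor receptor of macrophages, fell by 0.78 on the probe detected in all 20 arrays (limma adjusted p = 0.00241). Its other probe was detected in no array of former testes and was at least 1.22-fold higher in former ovaries (limma adjusted p = 0.00155). Cd68, a lysosomal macrophage protein, fell by 0.84 (limma adjusted p = 0.0167), but without XY-_B replicate 1 the adjusted p was 0.0711 and without slide 5 it was 0.162. Not called were Cd163 (-0.65, limma adjusted p = 0.229) and Marco (-0.31), both scavenger receptors.

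The summed intensity of the macrophage and Kupffer cell list was 3881 to 5585 in former testes and 7262 to 18946 in former ovaries, without overlap. Its mean level was 6.48 ± 0.08 in XXSry_B, 6.61 ± 0.13 in XY-Sry_B, 7.17 ± 0.17 in XX_B and 7.42 ± 0.42 in XY-_B mice (log2, SD, n = 5 each). XY-_B replicate 1 held the highest sum; without it 11 probes were called and the median was -0.67. Cd5l and Mpeg1 were not tested. In whole tissue, fewer cells of a type and less RNA per cell cannot be told apart, for this list and all others.

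MHC class II genes gave 11 called probes of 15, all lower in former testes, for 7 of 10 genes, with a median of -0.93. H2-Ab1, the beta chain of the class II molecule I-A, ranged from 8.48 to 8.80 (median 8.66) against 9.13 to 10.54 (median 9.61), a difference of -1.04 ± 0.16 (limma adjusted p = 2.09e-05), and 4 of its probes were called, at -0.97 to -1.10. Cd74, the invariant chain listed as Ii, ranged from 8.68 to 9.59 (median 9.15) against 9.59 to 11.04 (median 10.10), a difference of -0.97 (limma adjusted p = 7.06e-05). H2-Ab1 left a gap between the arms, and Cd74 met at the edge. H2-Aa (-1.06, limma adjusted p = 0.00152), H2-DMa (-0.95, 0.00533) and H2-Eb1 (-0.93, 0.00472) fell with them, as did the antigen-processing protease gene Lgmn (-0.59, 0.00924; 0.0506 with median centring and 0.0656 without slide 5). H2-DMb1 fell by 0.62 (limma adjusted p = 0.0212) but was not called without XY-_B replicate 1 (0.0856), XX_B replicate 1 or XXSry_B replicate 5. Ctss, a protease that trims the invariant chain, missed the threshold (-0.74, limma adjusted p = 0.0532) but was called with slide as a fixed block (0.00179), with median centring (0.0247) and on the 20 blank arrays alone (0.0152). List sums were 3989 to 6180 in former testes and 6392 to 17436 in former ovaries, and without XY-_B replicate 1 there were 9 calls. MHC class I, found on nearly all cells, gave 0 calls of 12 with a median of -0.09. All 12 differences were negative, with B2m at -0.06 and H2-K1 at -0.09.

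**Figure D2:**
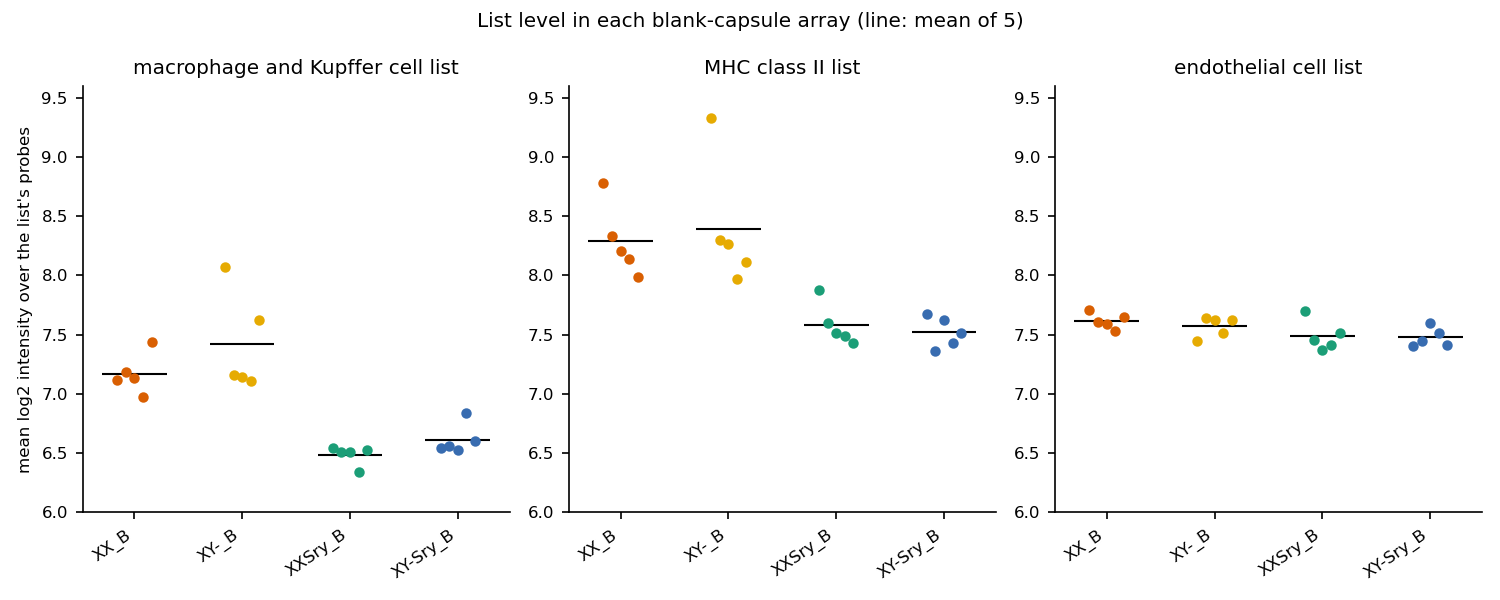
Mean log2 intensity over the probes of 3 gene lists (vertical axis) in each of the 20 blank-capsule arrays, by group; each point is 1 mouse and the line is the mean of 5. In the macrophage and Kupffer cell panel the group means run from 6.48 in XXSry_B to 7.42 in XY-_B, with XY-_B replicate 1 at the top.

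Interferon-gamma targets had 6 called probes of 38, all lower in former testes, for Cxcl9, Cxcl10, Gbp2b, Gbp4 and Cd274, with a list median of -0.17. Cxcl9, a chemokine that draws T cells, ranged from 7.49 to 8.18 (median 7.73) in former testes and from 8.96 to 10.31 (median 9.36) in former ovaries, with a clear gap and a difference of -1.72 ± 0.20 (limma adjusted p = 1.05e-08). Gbp2b, an interferon-induced GTPase listed as Gbp1, ranged from 4.70 to 6.23 (median 5.35) against 6.19 to 7.88 (median 6.68), a difference of -1.46 ± 0.22 (limma adjusted p = 7.64e-06) with touching arms. Cxcl10, a related chemokine, fell by 0.95 (limma adjusted p = 0.00551) and Gbp4 by 0.80 (limma adjusted p = 0.00759, and 0.101 with median centring). Cd274, the checkpoint ligand PD-L1, fell by 0.63 (limma adjusted p = 0.0411) and lost the call without any one of 12 arrays (adjusted p up to 0.154, without XY-_B replicate 1). Centring arrays on their medians, or leaving out slide 5, kept 4 of the 6 calls. Type I interferon genes gave 1 call of 35, Oas2 at -0.54 (limma adjusted p = 0.0263), which was lost without any one of 8 arrays (adjusted p up to 0.0875, without XX_B replicate 2). Ly6a, an interferon-inducible surface protein outside these lists, fell by 1.44 (limma adjusted p = 7.63e-07).

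The other cell types were described by their marker lists. Of the T and NK cell list 5 of 19 members could be tested, and 3 were called, with a list median of -0.52: Thy1, Cd3g and Cd3d. These genes mark T cells. Thy1 and Cd3g were detected in no array of former testes and in 8 and 5 arrays of former ovaries. They were at least 1.15-fold and 1.11-fold higher in former ovaries (limma adjusted p = 5.57e-07 and 1.66e-05). A probe undetected in all blank arrays of former testes passes the detection filter only through other arrays. The shared direction of these probes is in part set by that filter and says little about the list. Cd3d was detected in 0 arrays of former testes and 2 of former ovaries, so it has no fold; its call (limma adjusted p = 0.0208) was lost without XX_B replicate 1 (0.0791), XY-_B replicate 1 or XXSry_B replicate 5. The list summed to 126 to 173 in former testes and 171 to 339 in former ovaries. The neutrophil list had 0 calls of 7 (median -0.12); its sums were 179 to 233 and 203 to 2187, the last from XY-_B replicate 1, with no other array above 304. Its member S100a8 differed by -1.45 (limma adjusted p = 0.0772; 0.0176 on the 20 blank arrays alone). B cell sums of 107 to 207 and 139 to 239 gave 0 calls of 3 probes. Endothelial cells gave 0 of 13 (median -0.08, sums 7636 to 10160 and 8539 to 10725; Pecam1 at -0.20), and stellate cells 0 of 14 (median -0.14, sums 4764 to 7486 and 5215 to 8014). The few probes tested for dendritic cells (2), cholangiocytes (1), erythroid cells (4), adipocytes (2) and pancreas (1) gave 0 calls. Hepatocyte markers gave 1 of 13, G6pc, with a median of 0.01 and Alb at 0.08; Tf was not tested. The macrophage and class II levels moved with gonad type. For T cells only the 3 called probes did, at background in former testes, and the list sums overlapped at their edge. The part of macrophage, class II and T cell genes in the other differences was not tested.

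**Figure D3:**
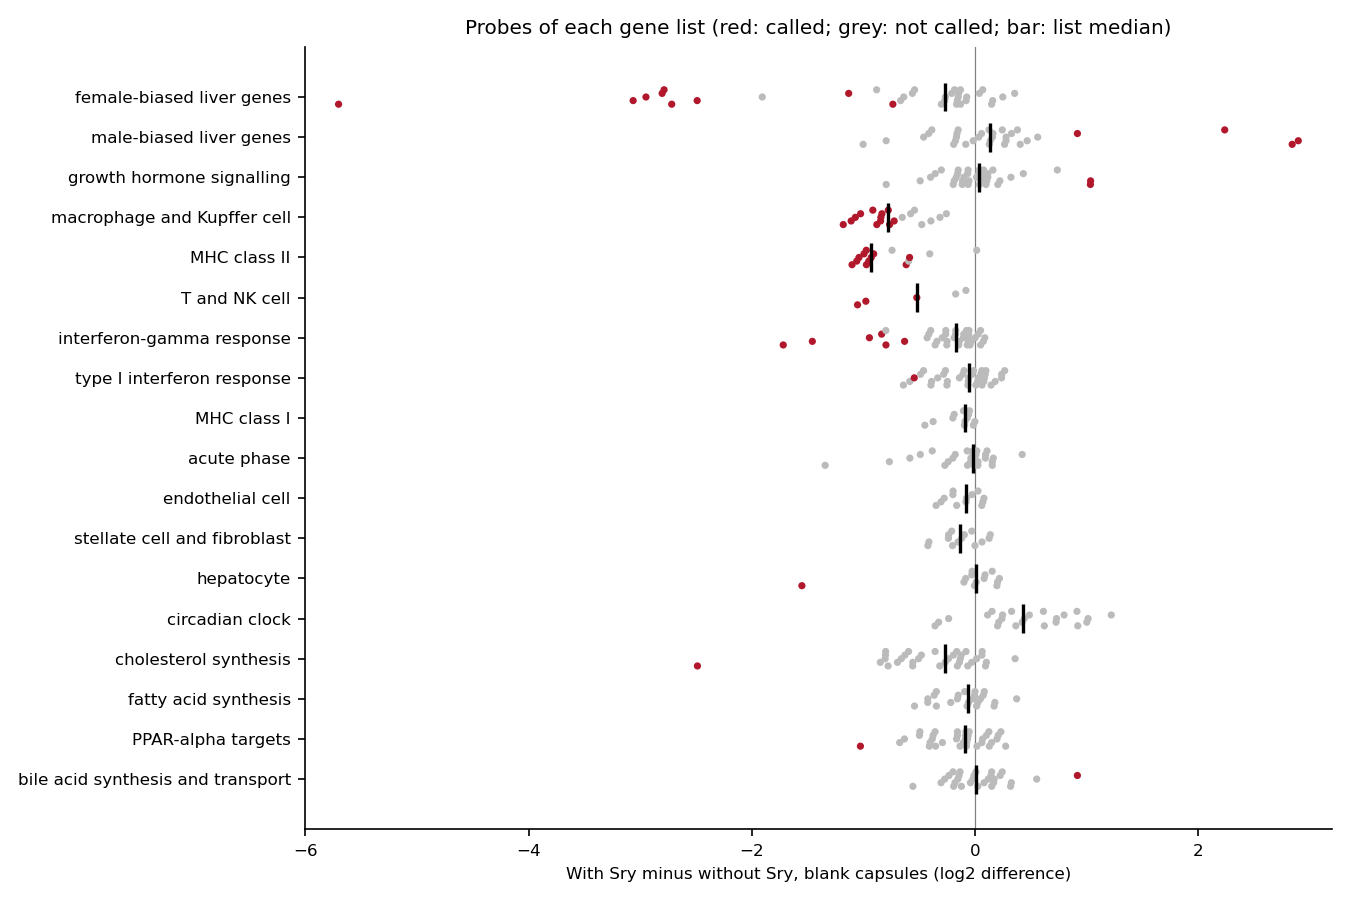
Difference of former testes minus former ovaries (horizontal axis, log2) for the probes of each gene list; each point is 1 probe, red where called, and the bar is the list's median. The macrophage and Kupffer cell (-0.78) and MHC class II (-0.93) medians lie farthest to the left, and the median of all tested probes is 0.01.

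Of the 201 called probes 149 belonged to no list, 27 higher and 122 lower in former testes. Several genes of this remainder, picked after their values were seen, are also known from myeloid cells: the metal transporter gene Slc11a1 (-1.11), the formyl peptide receptor gene Fpr2 (-1.16), the antibody receptor gene Fcgr4 (-1.07), Ly86 (-1.04), the lysosomal gene Laptm5 (-0.69), the inflammatory caspase gene Casp1 (-0.86), the RNA sensor gene Tlr7 (-0.65) and the hexokinase gene Hk3 (-0.89). Their limma adjusted p values lay between 6.77e-05 and 0.00194. In the other direction stood Fdxr, which passes electrons to mitochondrial P450 enzymes (0.49, limma adjusted p = 0.000456), but Fdxr was not called with median centring (0.43, 0.428).

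XX and XY mice were then compared. The test of gonad type by sex chromosome called 0 probes in limma, with 473 at an unadjusted p under 0.05, while 1118 probes reached that level for gonad type itself. All 201 called probes had the same sign in XX and in XY mice, and 196 had it on all 5 slides. The 201 were called on the mean over these same arrays, so this agreement follows in part from that choice. Tested apart, 58 probes were called within XX mice and 61 within XY mice, on separate arrays, and 32 were called in both (55.2% of the first and 52.5% of the second). Of the 58, 57 had the same sign in XY mice, and the 61 all had it in XX mice, against 54.8% of all tested probes.

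**Figure D4:**
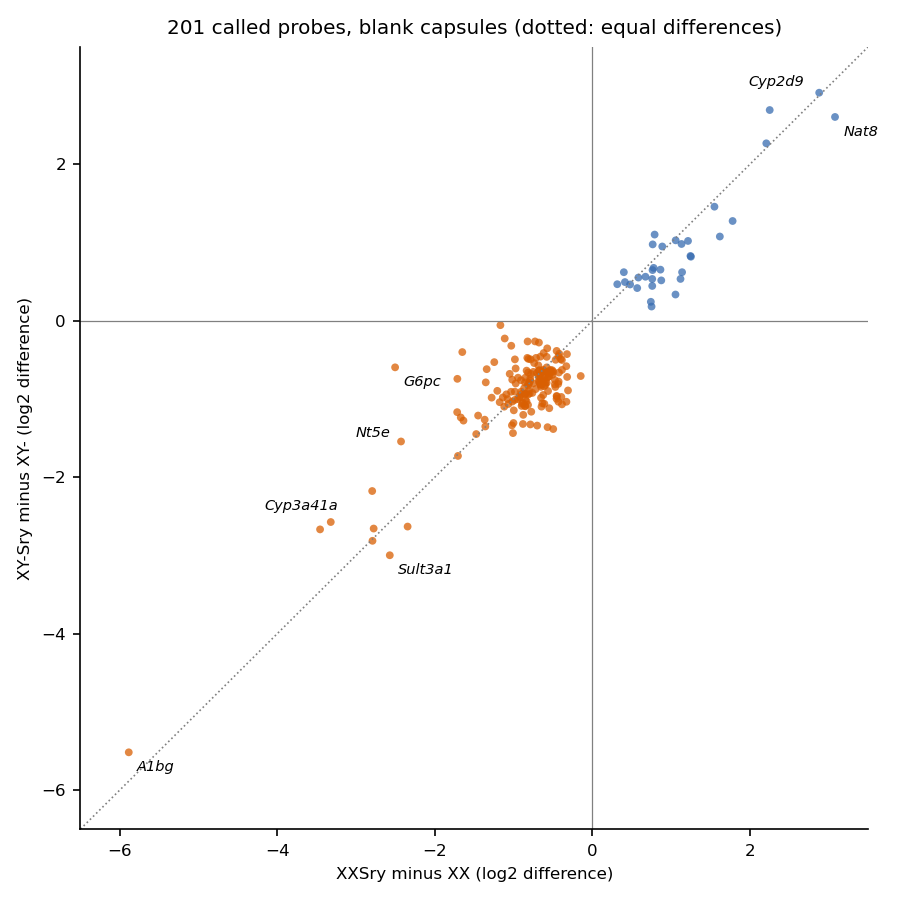
Log2 difference of XY-Sry minus XY- mice (vertical axis) against that of XXSry minus XX mice (horizontal axis) for the 201 called probes, 5 mice a group; the dotted line marks equal differences. All 201 lie in the quadrants of equal sign, A1bg farthest to the lower left, and G6pc (-2.50 and -0.60) lies off the line. The probes were called on the mean of the plotted differences, which favours equal signs.

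The same contrast in mice with hormone gave other counts: 24 probes under testosterone (0.212%), 12 in each direction, and 279 under estradiol (2.47%), 51 higher and 228 lower in former testes. These use other mice than the blank contrast. Of the 201 probes, 168 kept their sign under testosterone (51.7% of all probes did) and 13 were called there; 182 kept it under estradiol (57.7% of all probes) and 105 were called, which is 52.2% of the 201 and 37.6% of the 279. The median size of their difference was 0.79 without hormone, 0.21 under testosterone and 0.58 under estradiol. The probes were chosen for their size in the blank contrast, so a smaller value in the others follows in part from that choice. The 2 treated arrays, XY-Sry_T replicate 5 and XY-_E replicate 5, did not match their labels in marker genes but were kept in the main fit. Without them 424 probes were called under estradiol, 18 under testosterone and 223 in the blank contrast.

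A test of the difference between contrasts called 15 probes for blank against testosterone and 9 for blank against estradiol. The latter count became 36 and 46 with slide as a fixed and a random block, 37 with array weights and 36 without the 2 doubtful treated arrays. Under testosterone A1bg lay near background in both arms, at 4.86 in former testes and 4.84 in former ovaries; under estradiol it was 9.16 and 10.04, or 9.15 and 10.65 without the 2 doubtful arrays. Its contrast was therefore larger without hormone than under testosterone by 5.72 ± 0.68 (limma adjusted p = 1.46e-07) and than under estradiol by 4.82 ± 0.68 (limma adjusted p = 2.59e-05), or by 4.38 ± 0.61 without those arrays (2.26e-05). Cyp17a1 differed by 0.12 under testosterone and -0.50 under estradiol, and the test of the difference passed against testosterone (limma adjusted p = 0.00539) but not against estradiol (0.0966). Without the doubtful arrays Cyp17a1 differed by -0.79 under estradiol and that test passed (0.0458). Cyp3a41a kept a difference of -1.78 under estradiol (limma adjusted p = 8.41e-06; -2.01 without those arrays) and had -0.05 under testosterone. Igfbp2, higher in former testes without hormone, differed by -0.39 under testosterone (test of the difference, limma adjusted p = 0.00247) and by 0.20 under estradiol (0.317).

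Some genes were called under both hormones. Cxcl9 differed by -0.93 under testosterone and -1.35 under estradiol (limma adjusted p = 0.0148 and 7.15e-06), and St3gal6 by -0.98 and -0.77 (0.0128 and 0.023). Nat8 stayed higher in former testes, by 1.77 and 1.39 (limma adjusted p = 2.34e-05 and 0.000287). H2-Ab1 differed by -0.89 and -1.38 (limma adjusted p = 0.00207 and 1.15e-07). With median centring, 9 probes were called under testosterone, all higher in former testes, so Cxcl9, St3gal6 and H2-Ab1 were not called lower there. C1qb and Cyp2d9 were called under estradiol and not under testosterone, but the contrasts under testosterone and estradiol were not tested against each other. Without the doubtful arrays, the test of blank minus testosterone gave -0.72 for C1qb (limma adjusted p = 0.293). For Cyp2d9 it gave 2.87 (limma adjusted p = 0.000502). C1qb differed by -0.30 under testosterone and -0.94 under estradiol (limma adjusted p = 1.92e-05 for the latter). Cyp2d9 differed by 0.06 under testosterone and 1.77 under estradiol (limma adjusted p = 0.00857 for the latter; 2.25 without the doubtful arrays).

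**Figure D5:**
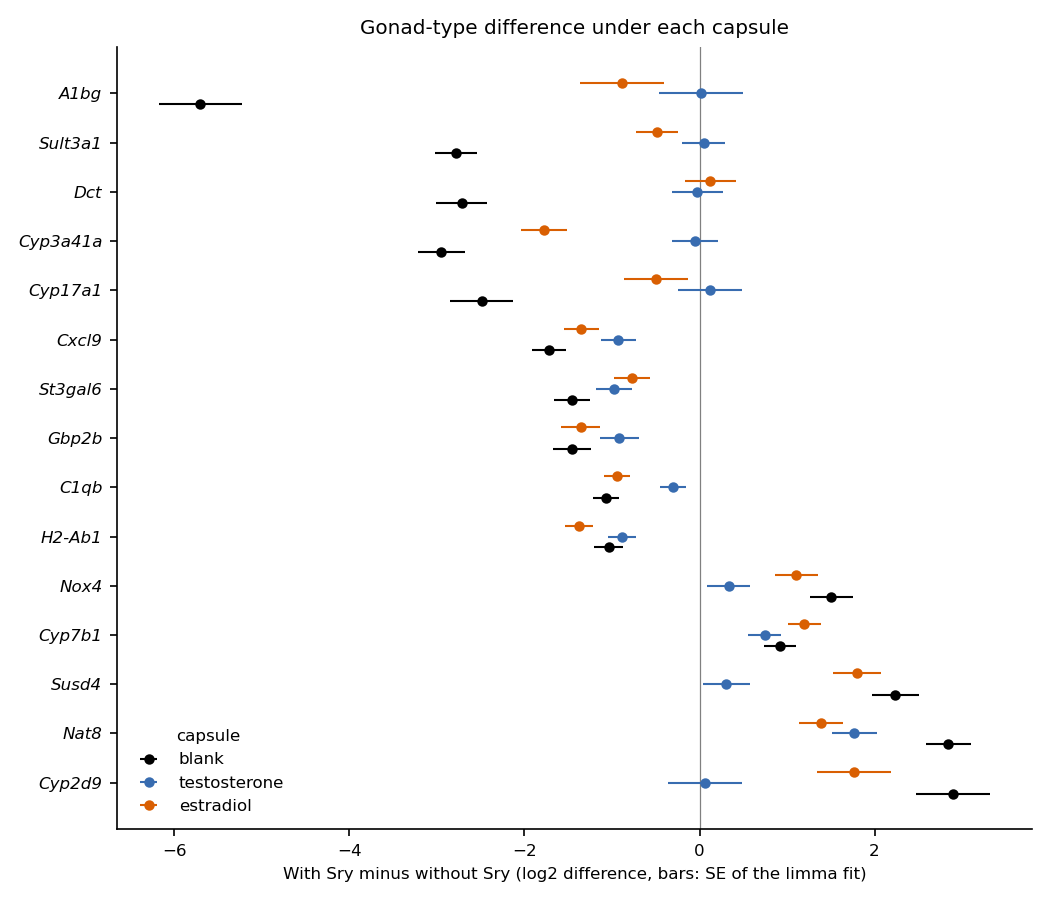
Log2 difference of former testes minus former ovaries (horizontal axis) under the blank, testosterone and estradiol capsules for selected genes; points are the fitted differences and bars their SE, with 10 arrays an arm. A1bg stands at -5.70 with the blank capsule, 0.02 under testosterone and -0.89 under estradiol, while Cxcl9 stays negative under all 3.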

How the data were processed

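Liver RNA was measured on Illumina mouse BeadChips, 1 array a mouse. The authors deposited 1 liver table with a linear intensity and a detection p-value per probe, with no negative values (lowest 89.1); the submitters' processing notes name lumi, without its role. The background correction, transformation and annotation build are not given in the sources used here.

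From these, intensities were background-corrected (normexp, with limma's nec on the detection p-values, offset 16), quantile normalised over the 60 liver arrays and put on the log2 scale. Probes detected (p under 0.01) on 5 or more arrays were kept, 11317 of 25697; 97.3% matched a RefSeq symbol (GRCm38.p6). A means model of 12 groups was fitted in limma 3.58.1 (R 4.3.3), with Benjamini-Hochberg adjustment over all probes kept and calls at 0.05. An exact permutation within slides used 7776 assignments. Fold bounds at background set the mean of the brighter arm against, per array, the higher of the lowest detected signal and the dim probe's own value. The pipeline was tested on simulated data. The number of arrays limits the precision.

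Named were the 15 largest called differences in each direction, called or defining list members, and up to 6 probes for each difference of contrasts; a gene is given by its probe with the smallest p. Some results under this rule are not reported here. Genes and lists were chosen with earlier results of these data known.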

Additional observations from a re-analysis of the deposited data

Results flagged for a closer look

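Among 436 groups of 5 blank arrays looked at, 30 held 1 array far from the other 4, where chance gives about 1 in 20 groups. All groups come from the same set of blank arrays and are not independent, so the 30 cannot be weighed against that rate. XY-_B replicate 1 was high for C1qb (11.68, the others 10.40 to 10.76), Cd163 (6.46, the others 5.62 to 5.78), Ctss (7.67, the others 6.39 to 6.75), Fcgr4 (11.65, the others 9.62 to 10.07), Gbp2b (7.65), H2-DMb1 (8.29), Lcn2 (11.84, the others 7.81 to 8.42) and S100a8 (10.66, the others 7.0 to 7.17). Most of these genes are known from macrophages or neutrophils.

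In the other former-ovary groups, XX_B replicate 1 stood high for H2-Eb1 (9.65), XX_B replicate 2 for Scara5 (4.96) and low for Psmb8 (5.63), XX_B replicate 3 low for Tlr7 (4.99), XX_B replicate 4 high for Slco1a1 (5.65), and XX_B replicate 5 high for Ghr (12.09) and Ly86 (7.18). XY-_B replicate 2 stood high for Syne4 (7.11) and Hsd3b5 (6.82), XY-_B replicate 4 high for Cyp2b9 (13.87) and low for Marco (4.58), and XY-_B replicate 5 low for Cyp7b1 (10.23).

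Among former testes, XXSry_B replicate 1 stood high for Cd68 (7.16) and Lgmn (10.36), and XXSry_B replicate 3 low for Gbp2b (4.84) and Per2 (8.21). XY-Sry_B replicate 1 was low for Cyp4a12 (4.61, the others 6.46 to 6.76), Mup1 (12.92) and Fpr2 (5.87). XY-Sry_B replicate 3 was high for Esr1 (7.33), replicate 4 low for Fcgr4 (8.62) and replicate 5 high for Cd68 (6.76).

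The gonad-type difference itself differed between capsules by a limma test of the difference. Blank minus testosterone, it was -5.72 for A1bg, -2.83 for Sult3a1, -2.90 for Cyp3a41a, -2.69 for Dct, -1.13 for Hao2 and -2.46 for Scara5 (limma adjusted p = 0.00029). Scara5, a scavenger receptor for ferritin, differed by 0.11 with the blank capsule and 2.57 under testosterone. Blank minus estradiol, it was -4.82 for A1bg, -2.84 for Dct, -2.30 for Sult3a1, -0.97 for Hao2, -1.35 for Pltp and -1.31 for Me1, the malic enzyme that supplies NADPH to fatty acid synthesis. Where an arm lay at background, these fitted values are no measure of its true level.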

How the results depend on the processing

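The 201 calls of the blank contrast became 320 with slide as a fixed block, 338 with slide as a random block, 464 with the slide block among only the 20 blank arrays, and 371 with array weights; single arrays left out gave 142 (without XY-_B replicate 1) to 230. Chip position as a block (153) and leaving out slide 5 (152), both chosen after seeing the data, stayed within 1.5 times.

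Under testosterone, 24 calls became 9 with median centring, 14 without background correction, 14 with detection in at least 10 of the 20 blank arrays, 39 with slide as a random block, 37 with array weights and 9 without slide 5. Under estradiol, 279 became 140 with median centring, 451 and 477 with the fixed and random slide block, and 424 without the 2 doubtful treated arrays.

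For blank minus testosterone, 15 became 24 and 25 with the fixed and random slide block, 26 with array weights and 8 without slide 5; single arrays left out gave 13 to 17. For blank minus estradiol, 9 became 4 without a filter on dim probes, 36 and 46 with the fixed and random slide block, 37 with array weights, 36 without the 2 doubtful arrays, 4 with the chip position block and 5 without slide 5; single arrays left out gave 4 (without XY-_B replicate 5) to 17 (without XY-_B replicate 1). The cause of these shifts was not tested. Gonad type by sex chromosome gave 0 calls in limma under every alternative run.

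Of 67 called genes looked at, 16 lost the call in at least 1 of 33 alternatives and none reversed; of 42 not called, 9 were called in at least 1. The labels give no replicate number shared between groups, so no pairs of arrays were formed; the slide, which holds 2 arrays of each arm, served as the block.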
